A study of Mus musculus with 10 samples.

Results

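The signals of 9 genes of meiotic chromosomes were followed through the differentiation of mouse ESCs into iPGCs, which are PGC-like cells made in embryoid bodies (EBs). The genes were *Stra8*, *Sycp1*, *Sycp2*, *Sycp3*, *Hormad1*, *Rec8*, *Smc1b*, *Stag3* and *Dmc1*. Every probe set that the platform annotation assigns to one of them was used, 10 of the 45101 probe sets on the Affymetrix mouse array. *Dmc1* had 2 probe sets and each other gene had 1.

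Each of 5 sorted populations was measured on 2 arrays. Oct4-Gfp iPGCs (cKit+ Oct4+) and Oct4-Gfp somatic cells (cKit- Oct4-) came from a line of mixed background in which a green reporter marks transcription of *Pou5f1*. V6.5 iPGCs (cKit+ SSEA+) and V6.5 somatic cells (cKit- SSEA-) came from a 129xBL6 F1 line, and the study describes both iPGC gates as the brightest cKit cells. All 4 of these populations were sorted at day 6 of EB culture without LIF. The ESCs were undifferentiated V6.5 cells (cKit+ SSEA+) grown on feeder fibroblasts, and no Oct4-Gfp ESCs were analysed here. Unless a line is named, comparisons of iPGCs with ESCs pool both iPGC lines against V6.5 ESCs, so cell type is mixed with line and gate. The sources read here do not say whether replicate arrays came from different cultures, and the p-values cover only the spread of these arrays, which may be technical.

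In meiosis, homologous chromosomes pair, are joined along their length by the synaptonemal complex, exchange DNA at programmed breaks and separate. The ring-shaped cohesin complex that holds sister chromatids together is rebuilt for this with meiotic subunits in place of the mitotic ones. PGCs, the embryonic precursors of sperm and eggs, do not enter meiosis until they have settled in the gonad. In ESCs and somatic cells many meiotic genes are held silent by a Polycomb complex that contains MGA, MAX and E2F6, and by DNA methylation of their promoters.

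The stretches before 6 of the genes are shown. They hold the letters of a factor of that complex or a unit of the sites of retinoic acid receptors, through which retinoic acid acts. The stretches of *Dmc1* and *Rec8* also hold the E2F motif and are not printed. Each line gives the 250 bases before the transcript start listed by RefSeq on GRCm38.p6, read 5′ to 3′ on the strand of the gene. Capitals mark CACGTG (the E-box bound by MAX with MGA), TCCCGC or its reverse complement GCGGGA (the E2F motif), and AGGTCA or TGACCT (a motif of retinoic acid receptors). Both strands were searched, and no match of one motif overlapped another.
Hormad1: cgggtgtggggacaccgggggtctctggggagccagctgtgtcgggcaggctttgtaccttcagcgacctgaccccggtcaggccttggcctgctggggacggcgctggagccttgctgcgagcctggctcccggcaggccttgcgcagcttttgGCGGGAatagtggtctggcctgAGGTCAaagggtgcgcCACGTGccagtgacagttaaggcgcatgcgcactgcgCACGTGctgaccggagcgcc
Sycp3: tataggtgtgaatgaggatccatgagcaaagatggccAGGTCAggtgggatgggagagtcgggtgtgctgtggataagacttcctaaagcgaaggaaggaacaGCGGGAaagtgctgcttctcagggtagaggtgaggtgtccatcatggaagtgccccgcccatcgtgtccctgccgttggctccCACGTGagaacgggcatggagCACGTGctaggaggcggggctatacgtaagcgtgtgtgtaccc
Sycp1: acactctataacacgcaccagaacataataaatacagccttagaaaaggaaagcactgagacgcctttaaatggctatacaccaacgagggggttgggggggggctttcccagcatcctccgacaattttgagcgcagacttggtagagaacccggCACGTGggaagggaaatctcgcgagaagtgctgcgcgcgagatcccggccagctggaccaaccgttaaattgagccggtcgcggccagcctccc
Stag3: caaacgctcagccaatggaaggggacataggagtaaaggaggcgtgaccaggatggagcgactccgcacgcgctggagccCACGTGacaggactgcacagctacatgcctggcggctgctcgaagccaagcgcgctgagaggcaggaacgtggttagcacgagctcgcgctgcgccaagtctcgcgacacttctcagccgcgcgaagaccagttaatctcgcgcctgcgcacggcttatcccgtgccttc
Smc1b: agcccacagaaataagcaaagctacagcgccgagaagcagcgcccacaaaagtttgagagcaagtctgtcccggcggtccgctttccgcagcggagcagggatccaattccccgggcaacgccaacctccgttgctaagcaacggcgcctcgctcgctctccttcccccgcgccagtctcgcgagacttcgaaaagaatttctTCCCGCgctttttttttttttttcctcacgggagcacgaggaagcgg
Stra8: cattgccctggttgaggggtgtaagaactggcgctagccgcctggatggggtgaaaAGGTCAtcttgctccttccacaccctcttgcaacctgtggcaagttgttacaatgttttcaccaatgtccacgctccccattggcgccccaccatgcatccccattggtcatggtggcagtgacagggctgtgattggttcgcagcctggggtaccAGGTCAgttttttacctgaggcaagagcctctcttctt

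The *Hormad1* stretch lies at chr3:95559427-95559676 and the *Sycp3* stretch at chr10:88459337-88459586, both on the plus strand. *Sycp1* is at chr3:102936101-102936350 on the minus strand, *Stag3* at chr5:138280259-138280508 on the plus strand, *Smc1b* at chr15:85131958-85132207 on the minus strand and *Stra8* at chr6:34920698-34920947 on the plus strand. The listed starts of *Stra8* and *Stag3* lie 785 and 7995 bases inside the gene record, so these stretches precede an internal start. *Hormad1* had 2 listed starts, of which the first was used.

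E-boxes were found before 4 of the 9 genes, with 2 each in *Hormad1* (first base 57 and 20 bases before the start) and *Sycp3* (64 and 43 bases before it) and 1 each in *Sycp1* and *Stag3*. Of the 32851 windows of this length in the table, 6.02% held an E-box and 0.429% held 2 or more. The E2F motif preceded 5 genes, with 2 copies in *Dmc1* and 1 each in *Hormad1*, *Sycp3*, *Smc1b* and *Rec8*, against 16.9% of all windows with at least 1. The retinoic acid receptor motif preceded 3 genes, *Stra8* with 2 copies, *Sycp3* and *Hormad1* with 1 each, against 14.0% of all windows. In *Stra8* the first bases of the copies lay at -194 and -38 from the start. No exact copies stood side by side, so paired sites were not found. *Sycp2* held none of the 3 motifs in its window. The E-box and the E2F motif contain CG, and the shares of all windows are not matched for CG content. The median window held 6 CG dinucleotides. The members held 26 (*Stag3*), 25 (*Smc1b*), 19 (*Hormad1*), 17 (*Sycp1*), 12 (*Sycp3* and *Dmc1*), 10 (*Rec8*), 7 (*Sycp2*) and 5 (*Stra8*). Such matches describe letters and do not show that a factor was bound.

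**Figure D1:**
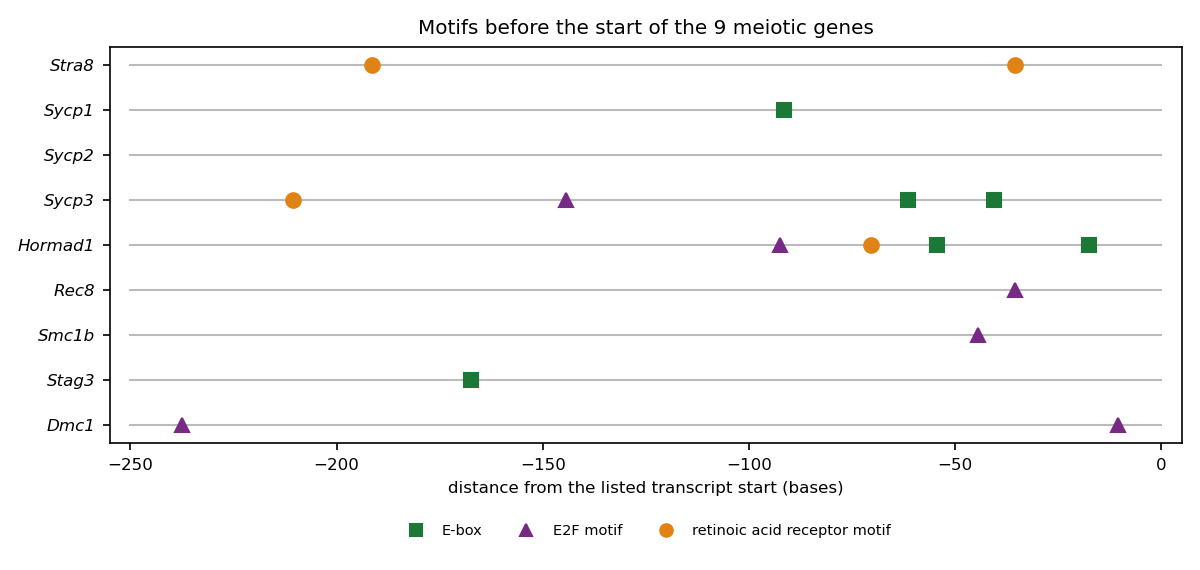
Positions of motifs in the 250 bases before the listed start of each of the 9 genes. Squares are the E-box and triangles the E2F motif. Circles are the retinoic acid receptor motif, which is a unit of a paired site. The x axis is the distance from the start in bases, and markers stand at the motif's centre. *Hormad1* and *Sycp3* each carry 2 E-boxes within 64 bases of the start.

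The deposited values are MAS5 signals on a linear scale with a trimmed mean of 500 per array, and array medians lay between 53.7 and 91.6. Background was taken on each array as the 95th percentile of 44 olfactory receptor probe sets, which gave 12.6 to 25.4. Signals plus an offset of 14.8 were put on a log2 scale, and the 26372 probe sets that exceeded the median of the array on 2 or more arrays were fitted together with limma. All changes below are log2 differences on this scale, which understate the change of dim genes, and a probe set was called at an adjusted p under 0.05.

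The sorted populations carried the markers of their labels. Summed signals of 5 pluripotency genes were 24094 to 27033 on iPGC arrays, 316 to 1034 on somatic arrays and 28778 to 29003 on ESC arrays. For 7 PGC genes the sums were 19833 to 20781 in iPGCs, 1800 to 2500 in somatic cells and 10531 to 11231 in ESCs. For 4 somatic mesoderm genes they were 692 to 1379 in iPGCs, 19847 to 22862 in somatic cells and 84.9 to 121 in ESCs. *Kit* is part of the PGC sum, and *Pou5f1*, whose transcription the reporter marks, is part of the pluripotency sum. Since cKit and the reporter were used in the sorts, these sums are not independent of them. The ratio of 3' to 5' *Gapdh* control signals, which grows as RNA is degraded, was 2.02 to 2.37 in Oct4-Gfp iPGCs, 1.51 to 1.63 in V6.5 iPGCs, 1.65 to 2.05 in somatic cells and 1.28 to 1.30 in ESCs.

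All 9 genes were above background on every iPGC array and on both ESC arrays. This limit is low, and 30897 to 33670 of the 45037 probe sets exceeded it on each array. In somatic cells *Sycp1*, *Sycp3*, *Dmc1*, *Rec8* and *Stag3* were above background on all 4 arrays. *Smc1b* and *Hormad1* were within background on all 4. *Stra8* was above background on both V6.5 somatic arrays and within it on both Oct4-Gfp somatic arrays, and *Sycp2* was within it on 1 V6.5 somatic array. Under a harsher limit, the 95th percentile of 112 probe sets for genes of terminally differentiated tissues, 8 of the 9 genes exceeded it on every iPGC array, 4 on every somatic array and 7 on both ESC arrays. *Sycp2* was the gene that lay below this limit on every array.

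**Figure D2:**
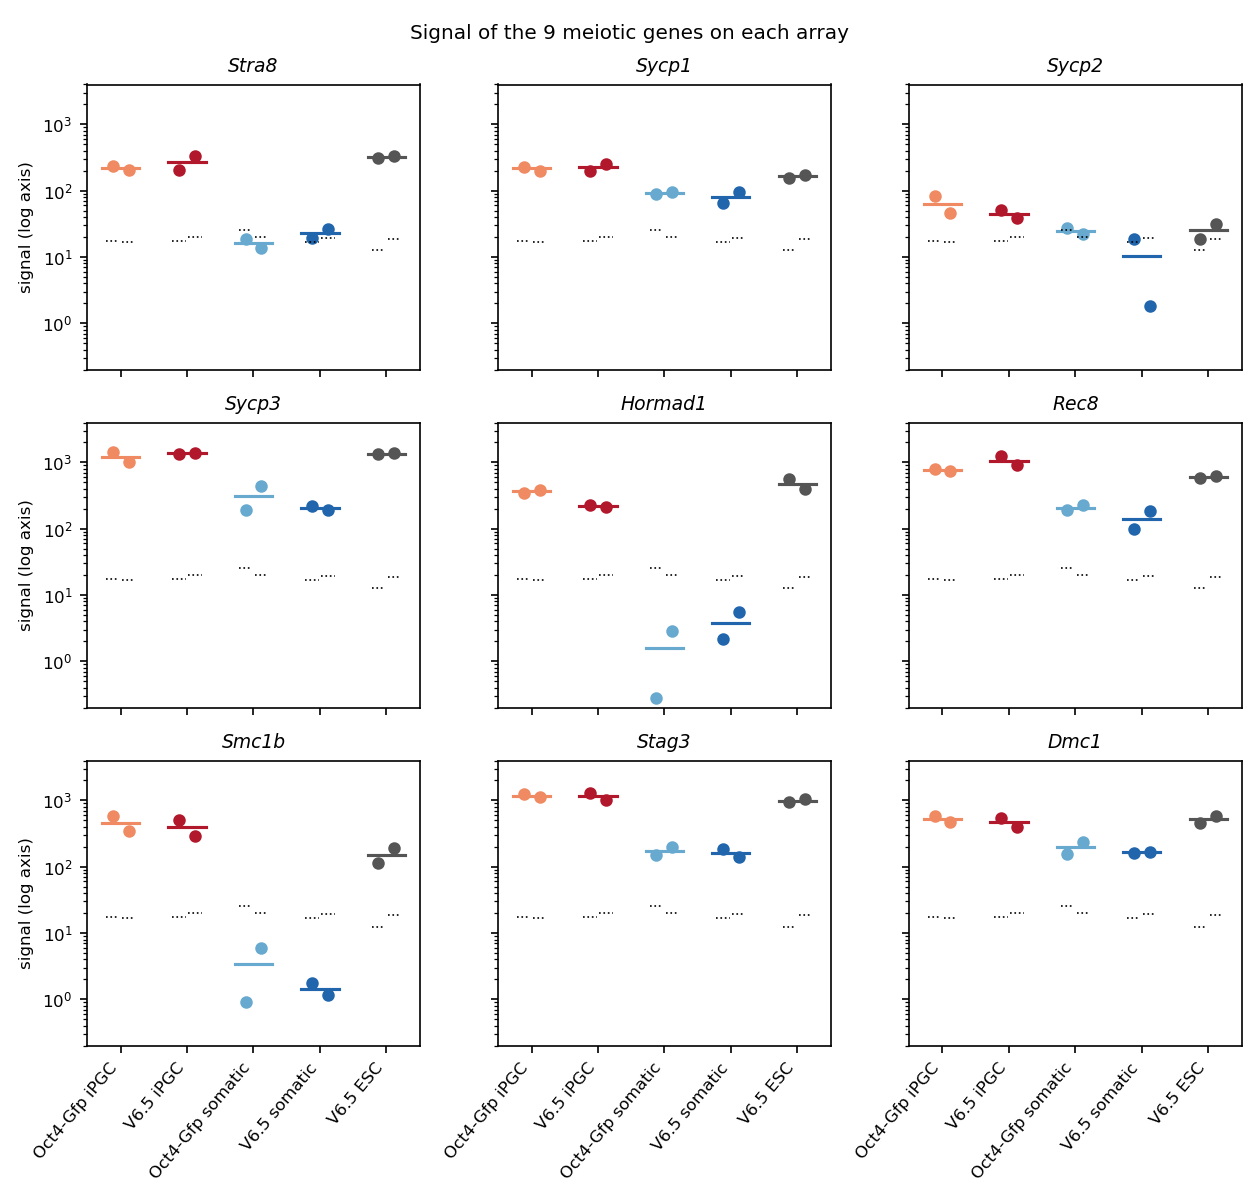
MAS5 signal (log y axis) of the 9 genes in Oct4-Gfp iPGCs, V6.5 iPGCs, Oct4-Gfp somatic cells, V6.5 somatic cells and V6.5 ESCs; points are arrays (2 per group), solid lines are group means and dotted lines the background of each array. *Smc1b* and *Hormad1* fall under the background on all 4 somatic arrays, whereas *Sycp1*, *Sycp3*, *Rec8*, *Stag3* and *Dmc1* lie above it there.

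Against somatic cells of the same day, all 9 genes were higher in iPGCs, and for each of them the lowest iPGC array lay above the highest somatic array. The share of all probe sets whose arrays were apart in this way was not counted. In the fit of all 45037 probe sets without a filter, all 9 were called higher, with a median log2 change of 2.33, against 37.4% of probe sets called in either direction and a median of -0.05 over all probe sets. The filter left out *Sycp2*, which exceeded its array's median on 1 array. With it 8 of 8 genes were called, where 58.3% of probe sets were. *Stra8*, *Smc1b* and *Hormad1* passed the filter only through their ESC and iPGC arrays, so the count without a filter is the one that covers the group. Setting *Smc1b* and *Hormad1* at their lower bounds cannot move the median of 2.33, since both bounds lie above it. In sorted bulk samples, fewer cells that transcribe a gene and less RNA per cell cannot be told apart.

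*Smc1b*, the meiotic form of the SMC1 arm of cohesin (1449253_at, chr15:85064689-85131957), had signals of 579 and 348 in Oct4-Gfp iPGCs and 506 and 288 in V6.5 iPGCs. Somatic signals were 0.923 and 5.94 in the Oct4-Gfp line and 1.75 and 1.15 in the V6.5 line, and ESC signals were 113 and 192. *Smc1b* was therefore high on all iPGC arrays, intermediate in ESCs and not measurable in somatic cells. It was at least 20.4-fold higher in iPGCs than in somatic cells, where the bound sets the iPGC mean against the background of the somatic arrays. In the fit without the filter its log2 change had an adjusted p of 5.07e-06 from limma, which does not test the bound. The bounds were 19.8 in the Oct4-Gfp line and 21.0 in the V6.5 line.

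*Smc1b* was also one of the 2 genes called between iPGCs and ESCs. All 4 iPGC arrays lay above both ESC arrays, with 430 ± 135 in iPGCs (SD, n = 4) and 152 ± 55.9 in ESCs (SD, n = 2). The log2 change was 1.41 ± 0.31 (SE, 95% interval 0.70 to 2.11, adjusted p = 0.0083 from limma). Within the V6.5 line it was 1.29 ± 0.35 (adjusted p = 0.0300), and the adjusted p was 0.156 without ESC replicate 1 and 0.131 without V6.5 iPGC replicate 1. Without ESC replicate 1 the pooled change was 1.06 with an adjusted p of 0.0728, and with the *Gapdh* ratio as a covariate, a setting added after seeing the data, it was 1.86 with an adjusted p of 0.252. That fit called 0 of the 26372 probe sets between iPGCs and ESCs, 18.5% of which had an unadjusted p under 0.05, and its median standard error was 0.39 against 0.17 without the covariate.

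*Rec8*, the kleisin that closes the meiotic cohesin ring (1419147_at, chr14:55618002-55625395), gave 807 and 741 in Oct4-Gfp iPGCs and 1237 and 899 in V6.5 iPGCs. Somatic signals were 189 and 225 in the Oct4-Gfp line and 99.9 and 183 in the V6.5 line, and ESC signals were 574 and 615. The iPGC arrays were all higher than the ESC arrays, and these were all higher than the somatic arrays. The log2 change of iPGCs against somatic cells was 2.33 ± 0.19 (SE, adjusted p = 2.00e-05 from limma). Against ESCs it was 0.59 ± 0.23 (adjusted p = 0.0702), and within the V6.5 line 0.81 ± 0.26 (adjusted p = 0.0544), so neither passed the threshold. Over the alternatives tried, the first of these adjusted p-values ranged between 0.0294 and 0.589 and the second between 0.0249 and 0.224. Each passed the threshold under 6 alternatives. Both did so with limma-trend, under the stricter filter and without either V6.5 somatic array, the first also with only the arrays compared and without V6.5 iPGC replicate 2 (0.0484), and the second also with the offset doubled and with the mean of probe sets.

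*Stag3*, the meiotic STAG subunit (1460229_at, chr5:138272514-138312397), gave 1243 and 1126 in Oct4-Gfp iPGCs and 1293 and 1020 in V6.5 iPGCs. Somatic signals were 149 and 196 in the Oct4-Gfp line and 187 and 140 in the V6.5 line, and ESC signals were 937 and 1043. The iPGC and ESC arrays overlapped, and every somatic array was far below both. The log2 change was 2.71 ± 0.14 against somatic cells (SE, adjusted p = 2.44e-06 from limma) and 0.23 ± 0.17 against ESCs (95% interval -0.17 to 0.64, adjusted p = 0.311).

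The mitotic counterparts had smaller fitted changes between iPGCs and somatic cells. *Smc1a*, the mitotic partner of *Smc1b*, had a log2 change of -0.02 ± 0.13 (SE, adjusted p = 0.907 from limma). *Rad21*, the mitotic kleisin, was higher in iPGCs by 0.42 ± 0.10 (adjusted p = 0.00757), and *Stag1* by 0.63 ± 0.11 (adjusted p = 0.00111). *Stag2* was lower in iPGCs by a log2 change of -0.80 ± 0.17 (adjusted p = 0.00398). *Smc3*, the arm that both forms of cohesin share, was higher by 0.49 ± 0.10 (adjusted p = 0.00335). Against ESCs, *Rad21* and *Stag1* were higher in iPGCs by 0.78 ± 0.12 and 0.64 ± 0.13, whereas *Smc1a*, *Smc3* and *Stag2* had changes of 0.19, 0.28 and 0.47 that did not pass. The difference between a meiotic subunit and its mitotic counterpart was not tested.

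Of 17 genes of mitotic cohesin and its regulators, 9 were called higher and 2 called lower in iPGCs against somatic cells, with a median change of 0.42, where 33.7% of all 12200 genes tested were called higher and 29.8% lower, with a median of 0.07. Against ESCs 6 were higher and 1 lower, with a median of 0.32. Of all genes 24.5% were higher and 21.0% lower, with a median of 0.04. Within the V6.5 line 3 were higher than in ESCs and none lower, where 17.3% of all genes were higher and 12.9% lower. *Esco2*, an acetyltransferase that locks cohesin on replicated DNA, exceeded the somatic level by 2.31 in iPGCs, and *Wapl*, which releases cohesin, exceeded the ESC level by 1.03. *Hdac8*, the cohesin deacetylase, was lower in iPGCs than in somatic cells (-1.47).

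**Figure D3:**
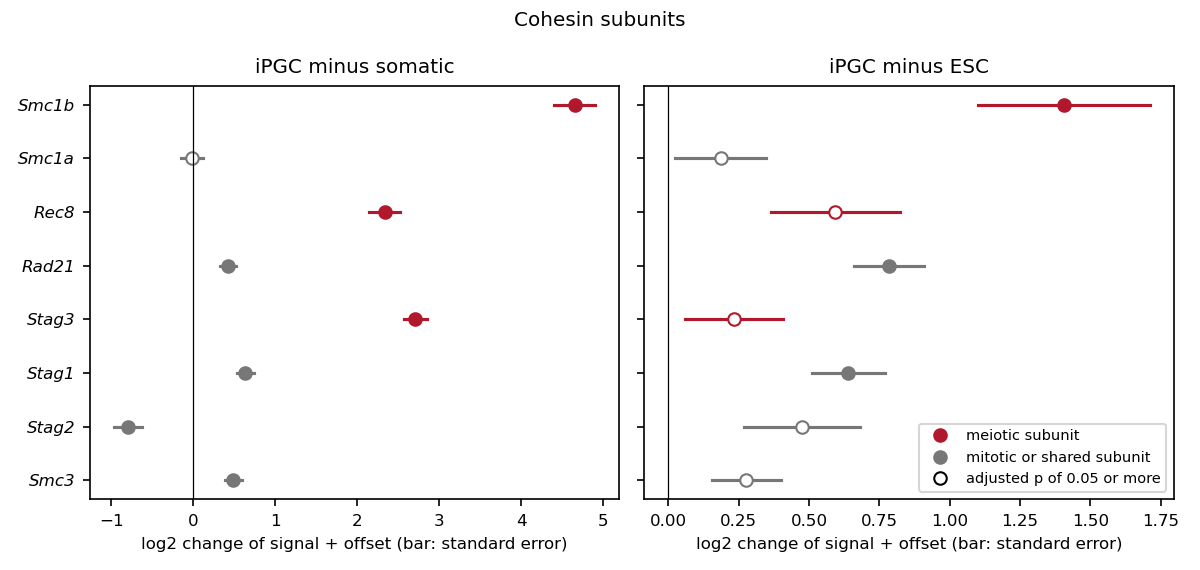
Log2 change of signal plus offset (x axis) of 3 meiotic cohesin subunits (red) and 5 mitotic or shared ones (grey), iPGCs minus somatic cells on the left and iPGCs minus ESCs on the right; bars are the standard error of the limma fit and open points have an adjusted p of 0.05 or more. The left points run between -0.80 (*Stag2*) and 4.65 (*Smc1b*, whose somatic arrays are within background, so that its fitted value depends on the offset).

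*Sycp3*, a lateral element protein on the chromosome axis (1449534_at, chr10:88459587-88473236), gave 1429 and 1005 in Oct4-Gfp iPGCs and 1339 and 1397 in V6.5 iPGCs. Somatic signals were 190 and 435 in the Oct4-Gfp line and 222 and 194 in the V6.5 line, and ESC signals were 1329 and 1375. Signals in iPGCs and ESCs overlapped and all somatic arrays were lower. The log2 change was 2.32 ± 0.24 against somatic cells (SE, adjusted p = 7.58e-05 from limma) and -0.08 ± 0.29 against ESCs (95% interval -0.75 to 0.59, adjusted p = 0.849).

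*Sycp2*, the partner of *Sycp3* in the lateral element (1444122_at, chr2:178345295-178407776), was dim throughout. It gave 82.6 and 45.4 in Oct4-Gfp iPGCs and 51.7 and 38.2 in V6.5 iPGCs. Somatic signals were 27.4 and 22.5 in the Oct4-Gfp line and 18.8 and 1.80 in the V6.5 line, and ESC signals were 18.8 and 31.8. All iPGC arrays lay above the others. Without the filter its log2 change was 1.14 ± 0.26 against somatic cells (SE, adjusted p = 0.00908 from limma) and 0.77 ± 0.32 against ESCs (adjusted p = 0.129).

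*Sycp1*, the transverse filament that bridges the axes of paired homologues (1427291_at, chr3:102818499-102936100), gave 232 and 202 in Oct4-Gfp iPGCs and 196 and 256 in V6.5 iPGCs. Somatic signals were 88.0 and 95.8 in the Oct4-Gfp line and 64.8 and 97.2 in the V6.5 line, and ESC signals were 157 and 174. The 3 cell types did not overlap, with iPGCs highest. The log2 change was 1.23 ± 0.14 against somatic cells (SE, adjusted p = 0.000154 from limma), and 0.38 ± 0.17 against ESCs did not pass (adjusted p = 0.111).

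*Hormad1*, an axis protein that marks chromosomes not yet joined (1450292_a_at, chr3:95559677-95587863), gave 348 and 386 in Oct4-Gfp iPGCs and 229 and 213 in V6.5 iPGCs. Somatic signals were 0.285 and 2.90 in the Oct4-Gfp line and 2.17 and 5.52 in the V6.5 line, and ESC signals were 564 and 397. Unlike *Smc1b*, it was highest in ESCs, and all iPGC arrays lay below both ESC arrays. It was at least 14.0-fold higher in iPGCs than in somatic cells, with bounds of 16.1 in the Oct4-Gfp line and 12.1 in the V6.5 line. The log2 change against somatic cells in the fit without the filter had an adjusted p of 8.43e-07 from limma. Against ESCs the log2 change was -0.70 ± 0.17 (SE, 95% interval -1.09 to -0.32, adjusted p = 0.0123), and within the V6.5 line it was -1.05 ± 0.19 (adjusted p = 0.0076). Without ESC replicate 1 the pooled change was -0.46 with an adjusted p of 0.106, and with the *Gapdh* ratio as a covariate -1.05 with an adjusted p of 0.227, in the fit that called no probe set.

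*Dmc1*, the meiotic recombinase that pairs broken DNA with the homologue (chr15:79561497-79605159), was read by 2 probe sets. The probe set 1449819_at gave 580 and 468 in Oct4-Gfp iPGCs and 550 and 400 in V6.5 iPGCs, against 153 and 238 in Oct4-Gfp somatic cells and 162 and 168 in V6.5 somatic cells, and 463 and 589 in ESCs. For this probe set the iPGC and ESC arrays overlapped. Its log2 change was 1.40 ± 0.17 against somatic cells (SE, adjusted p = 0.000223 from limma) and -0.08 ± 0.21 against ESCs (adjusted p = 0.797). The probe set 1420335_at had the same direction against somatic cells, 1.13 ± 0.15 (adjusted p = 0.000341), and 0.26 ± 0.19 against ESCs (adjusted p = 0.292).

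*Stra8*, the retinoic acid target that opens the meiotic programme (1420568_at, chr6:34920163-34939344), gave 237 and 207 in Oct4-Gfp iPGCs and 205 and 337 in V6.5 iPGCs. Somatic signals were 18.8 and 13.7 in the Oct4-Gfp line and 19.2 and 26.9 in the V6.5 line, and ESC signals were 310 and 337. One V6.5 iPGC array reached the ESC level and the other 3 lay below it. Without the filter the log2 change was 2.91 ± 0.17 against somatic cells (SE, adjusted p = 7.41e-06 from limma). This value depends on the offset because both Oct4-Gfp somatic arrays are within background, and the bound in the Oct4-Gfp line was at least 9.76-fold. In the V6.5 line, with both somatic arrays above background, the change without the filter was 2.89 ± 0.24 (adjusted p = 0.000104). Against ESCs, in the fit with the filter, the change was -0.40 ± 0.20 (95% interval -0.86 to 0.07, adjusted p = 0.147). Without V6.5 iPGC replicate 2, the highest iPGC array of *Stra8*, it was -0.57 (adjusted p = 0.0238).

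Against ESCs 2 genes were called. The comparisons with ESCs share the 2 ESC arrays, and those of iPGCs share the iPGC arrays. Of the 8 tested, *Smc1b* was called higher and *Hormad1* lower in iPGCs, where 41.8% of probe sets were called, and the other 6 did not pass. Within the V6.5 line the same 2 genes were called, against 27.2% of probe sets. Without the filter the median log2 change of the 9 genes was 0.23, and that of all probe sets was 0.02. None of the 8 reached the 3-fold threshold used in the study, taken here with an unadjusted limma p under 0.01, which 3.78% of probe sets passed, while 3 of the 8 had an unadjusted p under 0.05, against 51.0% of all probe sets. In the pooled comparison the share of the 8 genes called was below that of all probe sets, and within the V6.5 line the shares were near each other. Neither difference in share was tested. The PGC genes, the somatic mesoderm genes and the *Gapdh* ratio also differed between iPGCs and ESCs, as given above. Summed signals of 7 fibroblast genes were 402 to 682 on iPGC arrays, 843 to 973 on ESC arrays and 7434 to 12080 on somatic arrays. Of the 6 tested, 1 was higher (*Col1a1*) and 4 lower in iPGCs. *Thy1* alone gave 447 and 424 in ESCs, against 104 to 234 in iPGCs. *Col1a1* went the other way, with 119 and 149 in ESCs and 245 to 461 in iPGCs. The ESCs were grown on feeder fibroblasts, whose share of the ESC signal was not tested. The part that the differences named here had in the values of the 9 genes was not tested either.

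**Figure D4:**
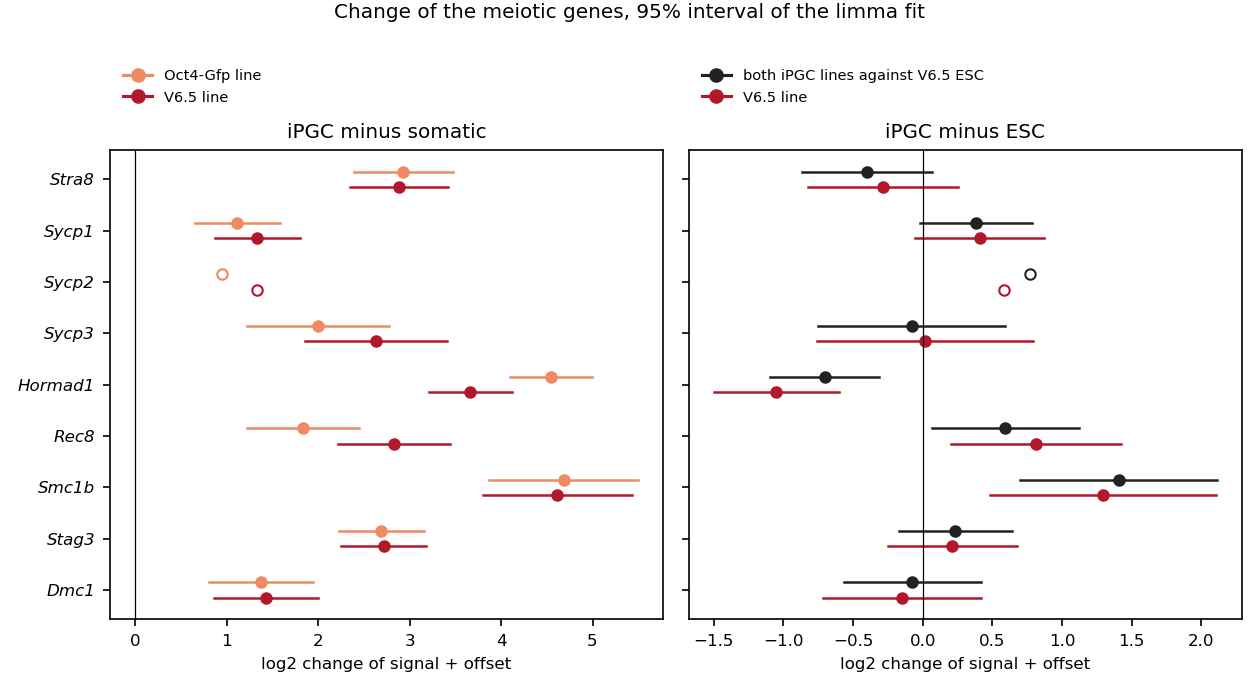
Log2 change of signal plus offset (x axis) with the 95% interval of the limma fit for each gene, iPGCs minus somatic cells within the Oct4-Gfp and V6.5 lines on the left, and both iPGC lines or V6.5 iPGCs minus V6.5 ESCs on the right; open points are *Sycp2* without the filter. On the left every point lies above 0, and on the right *Smc1b* (1.41) and *Hormad1* (-0.70) lie on opposite sides of it; the fitted values of *Smc1b*, of *Hormad1* and of *Stra8* in the Oct4-Gfp line on the left depend on the offset, since the somatic arrays are within background.

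Within each line the order of iPGCs over somatic cells was kept. Without the filter 8 of 9 genes were called higher in Oct4-Gfp iPGCs than in Oct4-Gfp somatic cells, the exception being *Sycp2* (0.95, adjusted p = 0.0921 from limma), against 28.4% of probe sets. In the V6.5 line 9 of 9 were called, against 26.3%. With the filter 8 of 8 were called in each line, against 47.0% in the Oct4-Gfp line and 45.5% in the V6.5 line. Between the iPGC populations themselves no gene was called, and 0.00% of probe sets were. The smallest p among the 8 was that of *Hormad1*, which was 0.69 ± 0.19 higher in Oct4-Gfp than in V6.5 iPGCs (SE, unadjusted p = 0.00734, adjusted p = 0.117), with no overlap of the arrays. Over all probe sets 5526 had an unadjusted p under 0.05 in this comparison, and limma-trend called 932.

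Whether the gap between iPGCs and somatic cells differed by line was tested as an interaction, which was called for none of the 8 genes and for 0.0152% of probe sets. An unadjusted p under 0.05 was reached by 2 of the 8 genes and by 10.5% of all probe sets. *Rec8* had the smaller contrast in the Oct4-Gfp line, by -0.99 ± 0.37 (SE, adjusted p = 0.443 from limma), and *Hormad1* the larger one, by 0.88 ± 0.27 (adjusted p = 0.383). The *Hormad1* value depends on the offset, since all 4 somatic arrays are within background. The line and the sorting gate changed together and cannot be told apart.

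Somatic cells of the V6.5 line were set against the ESCs of the same line. All 9 genes had lower signals on both somatic arrays than on both ESC arrays. For *Sycp2* the gap was narrow, with 18.77 on the higher somatic array and 18.80 on the lower ESC array. The share of all probe sets ordered in this way was not counted. Without the filter 8 of 9 were called lower, the exception being *Sycp2* (-0.75, adjusted p = 0.163 from limma), against 34.5% of probe sets, and with it 8 of 8, against 57.2%. The V6.5 somatic mean was 49.0% of the ESC mean for *Sycp1*, 40.6% for *Sycp2*, 31.4% for *Dmc1*, 23.8% for *Rec8*, 16.5% for *Stag3*, 15.4% for *Sycp3* and 7.12% for *Stra8*. For *Smc1b* and *Hormad1*, ESCs were at least 8.06-fold and 26.0-fold above V6.5 somatic cells. The pluripotency genes *Pou5f1*, *Nanog*, *Sox2*, *Zfp42* and *Esrrb* kept 0.674% to 2.96% of their ESC mean in the same somatic cells. These shares are of linear signals, which include unspecific signal, so those of dim genes are upper values.

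Other genes of the synaptonemal complex and of meiotic recombination were read from a list of 32, of which 25 had a probe set and 17 were tested. Of the 17, 7 passed the filter only through ESC and iPGC arrays, so the counts given are those without the filter. In iPGCs 18 of the 25 were called higher and none lower against somatic cells, with a median change of 1.18, where 22.3% of all 18193 genes were higher and 21.4% lower, with a median of 0.01. Against ESCs 3 were higher and 3 lower, with a median of 0.28, where 14.0% of all genes were higher and 12.3% lower, with a median of 0.03. *Tex15*, needed for meiotic break repair in mice, was 1.54 ± 0.20 higher in iPGCs than in ESCs (SE, adjusted p = 0.000989 from limma), and *Msh5*, a crossover factor, and *Sgo2a*, the protector of centromeric cohesin, were higher by 0.78 and 0.71. The central element genes *Syce3* and *Syce1* and the mismatch repair gene *Mlh3* were lower in iPGCs, with log2 changes of -1.29, -0.66 and -0.67. Within the V6.5 line *Syce3* was not called (-0.80, adjusted p = 0.0946 from limma), whereas *Syce1* (-0.86) and *Mlh3* (-0.66) were. *Tex11* was within background on all 4 somatic arrays and at least 8.35-fold higher in iPGCs.

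Of these 25 genes, 23 were above background on every iPGC array, 11 on every somatic array and 22 on both ESC arrays. On each array 30897 to 33670 of the 45037 probe sets were above the same limit. The 2 within background on every iPGC array were *Msh4*, whose signals there were 2.60 to 16.0, and *Ccnb3*, at 0.594 to 13.0, both named after their values were seen. *Spo11*, the enzyme that makes the meiotic breaks, was also named after its values were seen. It gave 34.3 and 22.3 in Oct4-Gfp iPGCs and 25.7 and 44.0 in V6.5 iPGCs, against 17.3 and 24.3 in Oct4-Gfp somatic cells, an average of 11.3 ± 1.77 in V6.5 somatic cells (SD, n = 2), and 8.18 and 12.2 in ESCs. It was above background on all 4 iPGC arrays, on 1 somatic array and on no ESC array, and it did not pass the filter.

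Genes of meiotic entry and retinoic acid signalling were called in both directions. Of 22 listed, 13 were tested. In iPGCs 4 of them exceeded the somatic level and 6 lay below it, with a median change of 0.02. Against ESCs 3 were higher and 3 lower, with a median of 0.22. Of all genes tested, 33.7% were higher and 29.8% lower against somatic cells, and 24.5% and 21.0% against ESCs. Without the filter 19 could be read, with 4 higher and 8 lower against somatic cells (median -0.24). Against ESCs 3 of these were higher and 3 lower (median 0.13). Of all genes without the filter, 22.3% were higher and 21.4% lower against somatic cells, and 14.0% and 12.3% against ESCs. *Dazl*, an RNA-binding protein that licenses germ cells for meiosis, gave 973 and 881 in Oct4-Gfp iPGCs and 677 and 408 in V6.5 iPGCs, was within background on all 4 somatic arrays and gave 155 and 175 in ESCs. It exceeded the somatic level at least 34.3-fold in iPGCs and the ESC level by 1.99 ± 0.20 on the log2 scale (SE, adjusted p = 0.00041 from limma). The receptor genes *Rarg* and *Rara* had log2 changes of -2.11 and -1.87 in iPGCs against ESCs, and so did *Crabp1*, a retinoic acid binding protein, with -1.47. *Cyp26a1*, which degrades retinoic acid, differed from ESCs by 1.29 and from somatic cells by -3.06 in iPGCs, both called.

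Among 22 tested genes for repressors of germline genes, iPGCs had 7 higher and 5 lower against somatic cells, with a median of 0.15, and 5 higher and 3 lower against ESCs, with a median of 0.08. The shares of all genes tested were 33.7% higher and 29.8% lower against somatic cells, and 24.5% higher and 21.0% lower against ESCs. *L3mbtl2* and *Pcgf6*, subunits of the Polycomb complex named above, exceeded the somatic level by 1.47 ± 0.09 and 0.99 ± 0.08 in iPGCs (SE, adjusted p = 5.41e-06 and 2.82e-05 from limma). *E2f6* was lower by a log2 change of -0.62 and *Yaf2* of -2.31. Against ESCs, *Yaf2*, *Ring1* and *Tfdp2* had called changes of 0.85, 0.79 and 0.66, and *Cbx3*, *Uhrf1* and *Ehmt2* of -0.88, -0.39 and -0.35. Without the filter 3 genes were higher and none lower against ESCs. Of 22 recombination repair genes that mitotic cells also use, 19 were called higher and none lower against somatic cells, with a median change of 0.64, and 7 higher and none lower against ESCs, beside the same shares of all genes. Without the filter the repair counts were 17 and 3. Within the V6.5 line and with the filter, 3 repressor genes were higher and 1 lower against ESCs. Of the repair genes, 2 were higher and none lower there, where 17.3% of all genes were higher and 12.9% lower. Among the repair genes *Rad51c* had the largest change against somatic cells, 2.01.

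The genes whose log2 values over the 10 arrays followed *Hormad1* most closely were *Piwil2*, a germline Argonaute protein that binds piRNAs, *D1Pas1*, a DEAD-box helicase gene of the mouse testis, and *Zbtb8a*, with Pearson r of 0.997, 0.997 and 0.995. *Smc1b* was followed by *8030474K03Rik*, *Ttc39b* and *Plcg2*, a phospholipase C, with r of 0.995, 0.991 and 0.991. These values describe arrays that share cell types, lines and processing.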

How the data were processed

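Sorted cells of 5 kinds were profiled on Affymetrix 430 2.0 arrays, 2 per kind. The authors deposited MAS5 signal intensity, not log-transformed, and the submitters' notes name no version of MAS5. The methods of the study name D-Chip, whose values were not used here. No detection calls were used, and the number of arrays limits the precision. No column of the table was without a sample.

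Gene symbols came from the platform annotation, where 34945 probe sets have 1 symbol, 932 several and 9160 none after 64 control probe sets were left out. Genes with several probe sets were read from the brightest on average. One limma 3.58.1 model in R 4.3.3 held the 5 groups (5 residual and 2.92 prior degrees of freedom), with Benjamini-Hochberg adjustment over all probe sets tested. It was tested on simulated data. A gene within background on every array of a group was given a lower bound as its fold. The study gives a fold and p threshold for its results and names no test.

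The genes, the lists and the rules were chosen with earlier results of these data known. The rule names all 9 genes, the mitotic cohesin subunits, up to 3 called genes per list and direction, and 3 genes most like each of the 2 members of widest range. Alternatives were the offset, the filter, quantile normalization, the arrays fitted, limma-trend, the replicate block, the mean of probe sets, each array left out, and the *Gapdh* ratio as a covariate, added after seeing the data. Sequences and coordinates are from RefSeq tables of GRCm38.p6, in which all 9 genes matched. Plots used matplotlib 3.10.9.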

Additional observations from a re-analysis of the deposited data

How the results depend on the processing

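The calls of iPGCs against somatic cells, in both lines and pooled, and of V6.5 somatic cells against ESCs stayed at 8 genes with any array left out. The fits with an array left out kept the main filter, which *Stra8*, *Smc1b* and *Hormad1* passed only through their ESC and iPGC arrays. No array was left out of the fit without a filter. Under a stricter filter the calls were 4 in each of these comparisons, since 4 of the 8 genes were then not tested. With the *Gapdh* covariate V6.5 somatic cells against ESCs had 7, as *Sycp1* was lost (adjusted p = 0.0942). The calls against ESCs were less firm. The count of 2 in both iPGC lines against ESCs became 1 (*Rec8*, since *Smc1b* and *Hormad1* were then not tested) under the stricter filter and 0 with the *Gapdh* ratio as a covariate, which was chosen after seeing the data and left 0 calls among all probe sets. It was 3 with limma-trend and with only the arrays compared, and ranged between 0 (without V6.5 ESC replicate 1) and 4 (without V6.5 iPGC replicate 2, with *Stra8* and *Rec8* added) as arrays were left out. The count of 2 in V6.5 iPGCs against ESCs became 1 without a filter, under the stricter filter, with only the arrays compared and with the *Gapdh* covariate (7.74% of all probe sets called), 3 with the offset doubled, limma-trend and the mean of probe sets, with *Rec8* added, and ranged between 1 and 3 as arrays were left out. It was 1 without V6.5 ESC replicate 1 or without V6.5 iPGC replicate 1. Apart from the fewer genes or arrays that some of these settings hold, the cause was not tested. The count past 3-fold, 0 of 8, ranged between 0 and 1, with 1 without V6.5 ESC replicate 2 or without V6.5 iPGC replicate 2. Over 1408 settings of single probe sets, 1384 kept their side of the threshold, 13 passed it newly and 11 lost it. Of changes called in the main fit or in the alternative, 0 changed sign. A change of sign where neither fit called the probe set was not counted. The deviations of replicate 1 were compared over 10 pairs of groups, with correlations between -0.292 and 0.262. The 2 over 0.1 were V6.5 ESCs with V6.5 iPGCs (0.262) and Oct4-Gfp iPGCs with Oct4-Gfp somatic cells (0.134). Without a test, these values cannot decide whether the numbers pair the samples. With the replicate number as a block the counts were 2 for iPGCs against ESCs, 8 for each comparison with somatic cells and 0 between the iPGC lines. Over all probe sets the comparison of the iPGC lines, with 0 calls, gave 932 with limma-trend, 782 under the stricter filter and 56 with the mean of probe sets. Quantile normalization turned the balance of all calls in the Oct4-Gfp contrast to 6320 higher and 5559 lower, against 5115 and 7290 in the values reported, and moved the median of all probe sets to 0.03 from -0.11. It turned the larger side in the V6.5 contrast, in both lines pooled and in V6.5 somatic cells against ESCs too, by under 10 percentage points of the calls. With 2 arrays per group, intervals of most single genes against ESCs span changes of 0.4 to 0.7 on either side.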
